A study of Mus musculus with 2 samples.

Results

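Nampt, Nadk, Nmnat1, Cd38, Bst1, Ido1, Ido2, Kmo and Kynu are enzymes that make, spend or modify NAD or that break down tryptophan. They were taken by symbol from the gene tables of 2 RNA-seq libraries of mouse macrophages and are 9 of the 55536 annotated genes measured there. The cells were primary macrophages grown from the bone marrow of C57BL/6J mice, and both libraries were made from polyadenylated RNA of whole cells after 300 min with a stimulus at 100 ng/mL. The labels name that stimulus in conflicting ways, as Lipid A in one field and as a lipoprotein in another, and no more specific name is used below. The libraries, replicate 1 and replicate 2 by their labels, came from separate biosample records that carry the same donor record. Neither the sex nor the age of the mice was recorded, and no genetic change is named. The series holds 1 group of 2 libraries and no unstimulated cells, so the values below are levels under stimulation and say nothing of a response to it. With 1 library on each side of every difference no p-value was computed, and every difference is between these libraries.

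NAD is a hydride carrier in energy metabolism and the substrate of enzymes that cut it and release nicotinamide. Cells rebuild it from nicotinamide by salvage, from nicotinic acid by the Preiss-Handler route, or from tryptophan by the kynurenine pathway. NAMPT, encoded by Nampt, joins nicotinamide to a ribose phosphate in the rate-limiting step of salvage, and NMNAT1 completes NAD in the nucleus. NADK phosphorylates NAD to NADP, from which cells draw the NADPH used in oxidative bursts and biosynthesis. CD38 and its relative BST1 (CD157) are ecto-enzymes that cut NAD and form ADP-ribose messengers. IDO1 and IDO2 open the tryptophan ring, KMO hydroxylates kynurenine, and kynureninase, encoded by Kynu, cuts its side chain. Macrophages are known for raising Nampt and Cd38 and for spending NAD during inflammatory activation.

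The libraries held 38028201 (replicate 1) and 63649100 (replicate 2) expected counts over annotated genes, where an expected count is the number of sequenced fragments that the quantifier assigned to a gene. Levels are given in TPM, a relative transcript abundance that is corrected for transcript length and can be compared between genes. Of 8 macrophage markers, 8 stood at 1 TPM or more in both libraries, led by Lyz2 with 10495 and 13567 TPM. Markers of neutrophils and their precursors summed to 508 TPM (replicate 1) and 18.7 TPM (replicate 2), and 3 of 10 reached 1 TPM in both. Dendritic cell markers summed to 14.7 and 4.22 TPM with 1 of 7 at 1 TPM in both, and B cell markers to 1.55 and 0.65 TPM with 0 of 5. T and NK cell markers summed to 45.2 and 79.9 TPM, nearly all of it from Cd4, while Cd3e and Cd8a had at most 0.12 TPM in a library. Endothelial and fibroblast markers summed to 23.9 and 72.9 TPM, mostly from Kdr, with 3 of 6 at 1 TPM in both. In bulk RNA of this kind, fewer cells of a type and less RNA per cell cannot be told apart.

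For 4 of these genes, joins that tell their main transcripts apart are shown, because the transcript results below rest on them. Each line gives 15 bases on either side of an exon boundary in mouse build mm10 (GENCODE M21), with the stretch that the transcripts have in common in capitals. For Nampt (chromosome 12, plus strand) the capitals are the start of the shared second exon, at chr12:32830167-32830181.
Nampt-201: accgactcgtacaagGTTACTCACTATAAA
Nampt-202: cccctggctcggcagGTTACTCACTATAAA
Nampt-203: aagcgggagacaaagGTTACTCACTATAAA
For Nadk (chromosome 4, plus strand) the shared exon begins at chr4:155576993-155577007.
Nadk-201: tcctgactgcagcagGCACCAGAGTTTTTC
Nadk-203: gcgcggcagccgacgGCACCAGAGTTTTTC
For Ido2 (chromosome 8, minus strand) the shared exon begins at chr8:24553826-24553840, read from right to left on the genome.
Ido2-201: gctcacgtgtacaggATGCCTCTCCTGGAC
Ido2-204: gctgagggcttccagATGCCTCTCCTGGAC
For Kynu (chromosome 2, plus strand) the capitals are the end of an exon at chr2:43679968-43679982. Kynu-201 is spliced there to its next exon and Kynu-203 reads on into the intron to end early.
Kynu-201: AAAAGAGGAGTCGTTtgtgacaagcgagaa
Kynu-203: AAAAGAGGAGTCGTTgtatgtatataaatt

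Of the 9 genes, 7 reached 1 TPM in both libraries, against 9982 of 55536 genes overall. Nampt stood above Nadk, Nadk above Cd38, Cd38 above Nmnat1, Nmnat1 above Kynu, and Kynu above Ido2 and Kmo, with Bst1 and then Ido1 at the bottom. Each neighbour in this order lay apart from the next in both libraries, except Ido2 and Kmo, whose TPM values overlapped. The closest pairs that did not overlap were Bst1 and Ido1, at 0.75 TPM against 0.68 TPM, and Cd38 and Nmnat1, at 10.89 TPM against 9.7 TPM. The 3 most abundant genes of the set are one enzyme each of salvage, NADP synthesis and NAD cleavage, and the kynurenine enzymes held 4 of the 5 lowest places.

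**Figure D1:**
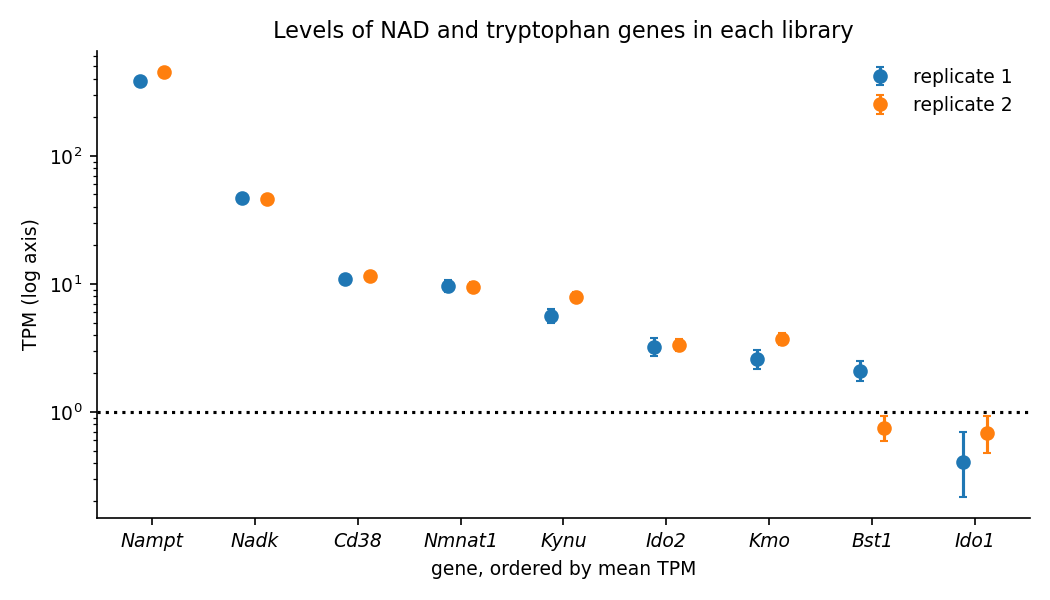
TPM (log axis) of the 9 genes in replicate 1 (blue) and replicate 2 (orange), ordered by their mean; bars are 95% intervals for counting error and the dotted line marks 1 TPM. Nampt sits at 382.78 and 449.03 TPM, the kynurenine enzymes lie at or under 7.98 TPM, and only Bst1 has its libraries on either side of the dotted line.

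Nampt, the salvage enzyme, was measured at 382.78 TPM in replicate 1 and 449.03 TPM in replicate 2, 416 ± 46.8 TPM (mean ± SD, n = 2). It ranked 387 by mean TPM among the 11059 genes at 1 TPM in either library, above 96.5% of them. The gene (ENSMUSG00000020572.8) lies at chr12:32819545-32853349 on the plus strand and was covered by 38849 and 55172 expected counts. After scaling for library size the libraries held nearly equal amounts of it, with a log2 ratio of replicate 2 over replicate 1 of -0.06 (95% interval for counting error -0.07 to -0.04). The TPM ratio had the other sign, 0.23 on the log2 scale, while the median TPM ratio of all genes was -0.15. Scaled counts and TPM thus rank the libraries differently for Nampt, and the mean effective length assigned to it was 4052 bases in replicate 1 and 2986 bases in replicate 2.

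That length difference lay in which Nampt transcripts the counts were assigned to. Nampt-201, the coding transcript of 4527 bases in 11 exons, was estimated at 364.2 and 287.37 TPM. Its share of the gene's TPM was 95.15% and 64%. Nampt-203 is annotated as a target of nonsense-mediated decay, the pathway that removes RNAs with early stop codons. It has 1024 bases in 6 exons and its own first exon of 418 bases, which begins 790 bases upstream of the start of Nampt-201. Nampt-203 reached 2.01 TPM from 37.56 expected counts in replicate 1 and 136.72 TPM from 4376.64 expected counts in replicate 2, a 78.9-fold difference in scaled counts. Its share of the gene's TPM was 0.53% and 30.45%. The short processed transcript Nampt-202 held 4.33% and 5.55%. Nampt-203 was thus far more abundant in replicate 2, where the TPM of the coding transcript was the lower one although that of the whole gene was the higher one.

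The second deposited quantification gave the same direction, with Nampt-203 at 3.65 TPM in the first library and 237 TPM in the other. In that table the share of Nampt-201 was 92.3% and 46.1%. Of the 1024 bases of Nampt-203, 606 are also exon bases of Nampt-201, so only reads over its first exon and the join printed above separate the transcripts. Moves of a transcript share by 20 percentage points or more were seen in 32.5% of 10568 genes with several transcripts. Among the 823 of them with 20000 or more summed counts, the share was 21.6%, and 11.1%, Nampt among them, moved by 30 points or more. Nampt, with 31.15 points, and Ido2, with 26.95 points, were the 2 of the 9 genes past 20 points. By the second quantification 3 of the 9 genes were, against 39.2% of the 10568 genes. Bst1 was the added gene: the share of Bst1-201 moved by -22.0 points there and by 11.89 points in the first quantification. All transcripts annotated as decay targets together held 2.01% of TPM in replicate 1 and 2.07% in replicate 2, or 1.70% and 2.39% in the second quantification. Retained-intron transcripts held 3.42% and 4.47%, or 3.63% and 5.80% in the second quantification. Processed transcripts held 2.82% and 3.48%, or 2.80% and 4.41% in the second quantification. The fragment length implied by the effective lengths was 280 bases in replicate 1 and 247 bases in replicate 2, and its part in these shares was not tested.

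Upstream of the start of Nampt-201 lies the stretch below, shown because the start of the leading Nampt transcript lies at its end. It holds the 250 bases before that start, at chr12:32820085-32820334 on the plus strand (RefSeq, GRCm38.p6), and the first exon of Nampt-203 ends before it begins.
Nampt promoter: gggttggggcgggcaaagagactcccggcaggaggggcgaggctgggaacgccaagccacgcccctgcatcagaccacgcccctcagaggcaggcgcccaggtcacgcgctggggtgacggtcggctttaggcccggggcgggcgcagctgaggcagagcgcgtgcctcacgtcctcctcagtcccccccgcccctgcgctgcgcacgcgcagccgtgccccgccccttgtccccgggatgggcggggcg
It was 75.6% G and C with 27 CpG pairs. The sequence was searched on both strands for CACGTG (E-box), TTCNNNGAA (STAT type) and TGACGTCA (cyclic AMP response element), patterns that may overlap one another, and held none of these letters. Of 32851 promoter windows of that length, 6.02% held the first pattern, 7.02% the STAT type and 1.55% the last. Promoter entries were matched for 5 of the 9 genes, with 7 windows in all.

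Nadk, the cytosolic NAD kinase, was measured at 47.28 TPM in replicate 1 and 46.2 TPM in replicate 2, 46.7 ± 0.764 TPM (mean ± SD, n = 2). The libraries differed little, with 3053 and 4712 expected counts and a log2 ratio of 0.06 (counting interval -0.0016 to 0.13). The gene (ENSMUSG00000029063.16) lies at chr4:155562378-155591001 on the plus strand. Its leading transcript in both libraries was the coding Nadk-201, with 72.96% and 60.86% of the gene's TPM. Nadk-203, also coding and with a first exon that starts 1322 bases downstream, was estimated at 10.02 and 12.63 TPM, or 21.18% and 27.34%. Both encode 1317 coding bases, so they differ in their first exons and in few other bases. The processed transcript Nadk-207 had 1.68% and 7.05%. Replicate 2 therefore had a lower share of Nadk-201 and higher shares of Nadk-203 and Nadk-207, within a nearly constant total.

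The window before Nadk-201, at chr4:155562131-155562380 on the plus strand (RefSeq, GRCm38.p6), is shown beside the exon joins because the start sites of Nadk differ in base composition.
Nadk promoter: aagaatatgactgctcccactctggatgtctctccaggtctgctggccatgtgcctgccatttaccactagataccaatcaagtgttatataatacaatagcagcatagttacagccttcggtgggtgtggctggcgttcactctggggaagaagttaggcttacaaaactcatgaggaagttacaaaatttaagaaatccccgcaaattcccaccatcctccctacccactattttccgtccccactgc
It was 46.8% G and C with 4 CpG pairs and held none of the patterns searched. The window of the second annotated start, near the starts of Nadk-203 and Nadk-207, was 66% G and C with 18 CpG pairs and held CACGTG 40 bases before that start, inside the first exon of Nadk-203. This was the only match in the 7 windows. Nadk2, which encodes the mitochondrial NAD kinase, had 1.19 and 1.66 TPM, so Nadk exceeded it 39.7-fold in replicate 1 and 27.8-fold in replicate 2.

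Nmnat1, which joins the adenylyl group that completes NAD in the nucleus, was measured at 9.7 TPM in replicate 1 and 9.53 TPM in replicate 2, 9.62 ± 0.120 TPM (mean ± SD, n = 2). Its TPM had the smallest relative spread of the 9 genes, with a coefficient of variation of 1.25%. In scaled counts its log2 ratio was farther from 0 than those of Nampt and Nadk, at 0.19 (counting interval -0.02 to 0.39). The gene (ENSMUSG00000028992.13) lies at chr4:149467572-149485202 on the minus strand. Nmnat1-201 held 71.56% and 72.19% of its TPM and Nmnat1-203, also annotated as coding, 26.07% and 27.81%. The mix of Nmnat1 transcripts was thus nearly the same in both libraries. Nmnat3, the mitochondrial relative, had 2.05 and 1.21 TPM and Nmnat2, known from neurons, had 0 counts in both. The log2 ratio of Nmnat1 over Nmnat3 was 2.24 in replicate 1 and 2.98 in replicate 2.

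Cd38, the main NAD glycohydrolase of the set, was measured at 10.89 TPM in replicate 1 and 11.58 TPM in replicate 2, 11.2 ± 0.488 TPM (mean ± SD, n = 2). Its 816 and 1441 expected counts gave a log2 ratio of 0.26 (counting interval 0.13 to 0.38), and Cd38-201 held 100% of its TPM in both libraries. The gene (ENSMUSG00000029084.5) lies at chr5:43868553-43912375 on the plus strand. Bst1 (ENSMUSG00000029082.17), its neighbour on the same strand at chr5:43818885-43843986, ends 24566 bases before Cd38 begins. Bst1 was measured at 2.09 TPM in replicate 1 and 0.75 TPM in replicate 2, 1.42 ± 0.948 TPM (mean ± SD, n = 2). It was the only one of the 9 genes past 1.5-fold toward replicate 1, with 122 and 81 expected counts and a log2 ratio of -1.13 (counting interval -1.58 to -0.74). Cd38 exceeded Bst1 5.21-fold in replicate 1 and 15.4-fold in replicate 2, and Bst1 differed more between the libraries than Cd38 did. In the second quantification the log2 ratio of Cd38 over Bst1 was 2.53 and 3.30, against 2.38 and 3.95 in the first, with Bst1 at 1.98 and 1.10 TPM.

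Some markers of other cell types were, like Bst1, higher in replicate 1, and others were higher in replicate 2. Of the 10 neutrophil markers, 4 passed the count filter and 4 of those were higher in replicate 1, among them S100a9 with 316.38 and 10.15 TPM. Ly6g had 0 TPM in both libraries, Elane had 0.74 and 0.10 TPM, and Mpo had 0.66 and 0.09 TPM. Of the 7 dendritic cell markers, 4 were kept and 3 were higher in replicate 1. Cd79b, the 1 B cell marker kept, had a log2 ratio of -0.98, and the fibroblast genes Col1a2 and Col1a1 had -0.91 and -0.51. Toward replicate 2 were Kdr (1.92), Cdh5 (0.56), Pecam1 (0.27) and the dendritic cell marker Xcr1 (0.24). Cd4, the 1 T and NK cell marker kept, had 1.00. The part of other cell types in the Bst1 difference was not tested. Bst1 also shares 98 exon bases with Fbxl5 on the opposite strand, which had 13.9 and 10.84 TPM, and whether the counting used strand is not given in the sources used here. The third glycohydrolase, Sarm1, had 1 and 2 expected counts.

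The kynurenine enzymes were low and mostly higher in replicate 2. Ido1 (ENSMUSG00000031551.12, chr8:24584136-24597009, minus strand) was measured at 0.41 TPM in replicate 1 and 0.68 TPM in replicate 2, 0.545 ± 0.191 TPM (mean ± SD, n = 2). It was below 1 TPM in both libraries. Its 13 and 37 expected counts gave a log2 ratio of 0.87 with a counting interval of 0.0025 to 1.98, so the size of the difference was barely resolved at this depth. Ido2 (ENSMUSG00000031549.16, chr8:24531892-24576333, minus strand), whose gene lies 7802 bases beyond Ido1, was measured at 3.21 and 3.32 TPM, 3.27 ± 0.0778 TPM (mean ± SD, n = 2). Ido2 thus exceeded Ido1 7.83-fold in replicate 1 and 4.88-fold in replicate 2 at the level of the whole gene.

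Most of the Ido2 signal was not assigned to its coding transcript. Ido2-204, a processed transcript of 3205 bases that starts 21736 bases downstream of Ido2-201, held 53.6% and 60.03% of the gene's TPM. The coding Ido2-201 had TPM values of 0.26 and 0.95, or 8.19% and 28.71%. The short processed Ido2-202 held 38.21% and 11.26%, from 8.5 and 4.72 expected counts. In the second quantification the leading transcript was Ido2-202 in replicate 1 and Ido2-201 in replicate 2, where Ido2-201 held 56.6%. The coding level of Ido2 was therefore below 1 TPM in both libraries by the first quantification and 0.620 and 1.93 TPM by the second, so the leading form was not settled between them. The scaled counts of Ido2 gave a log2 ratio of 0.60 (counting interval 0.32 to 0.89), while its TPM ratio was 0.05.

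Kmo, the kynurenine hydroxylase, was measured at 2.58 TPM in replicate 1 and 3.73 TPM in replicate 2, 3.16 ± 0.813 TPM (mean ± SD, n = 2). Its 132 and 379 expected counts gave a log2 ratio of 0.95 (counting interval 0.67 to 1.26), the largest toward replicate 2 among the 9 genes in scaled counts. By TPM Ido1 was the largest (0.72), and after removal of the GC and length trend Kynu (1.28). The gene (ENSMUSG00000039783.15) lies at chr1:175620381-175662116 on the plus strand, and the coding Kmo-201 held 75.22% and 94.53% of its TPM. Kynu (ENSMUSG00000026866.16, chr2:43555329-43682715, plus strand) was measured at 5.64 and 7.98 TPM, 6.81 ± 1.65 TPM (mean ± SD, n = 2). Its 256 and 671 expected counts gave a log2 ratio of 0.82 (counting interval 0.62 to 1.04). Kynu-203, the shorter coding transcript that reads into the intron, held 50.95% of Kynu in replicate 1 and 37.92% in replicate 2. Kynu-201 held 44.56% and 58.79%, and in the second quantification it led in both libraries. Kynu exceeded Kmo 2.19-fold in replicate 1 and 2.14-fold in replicate 2, so this ratio of consecutive enzymes was alike in the libraries while both levels differed.

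**Figure D2:**
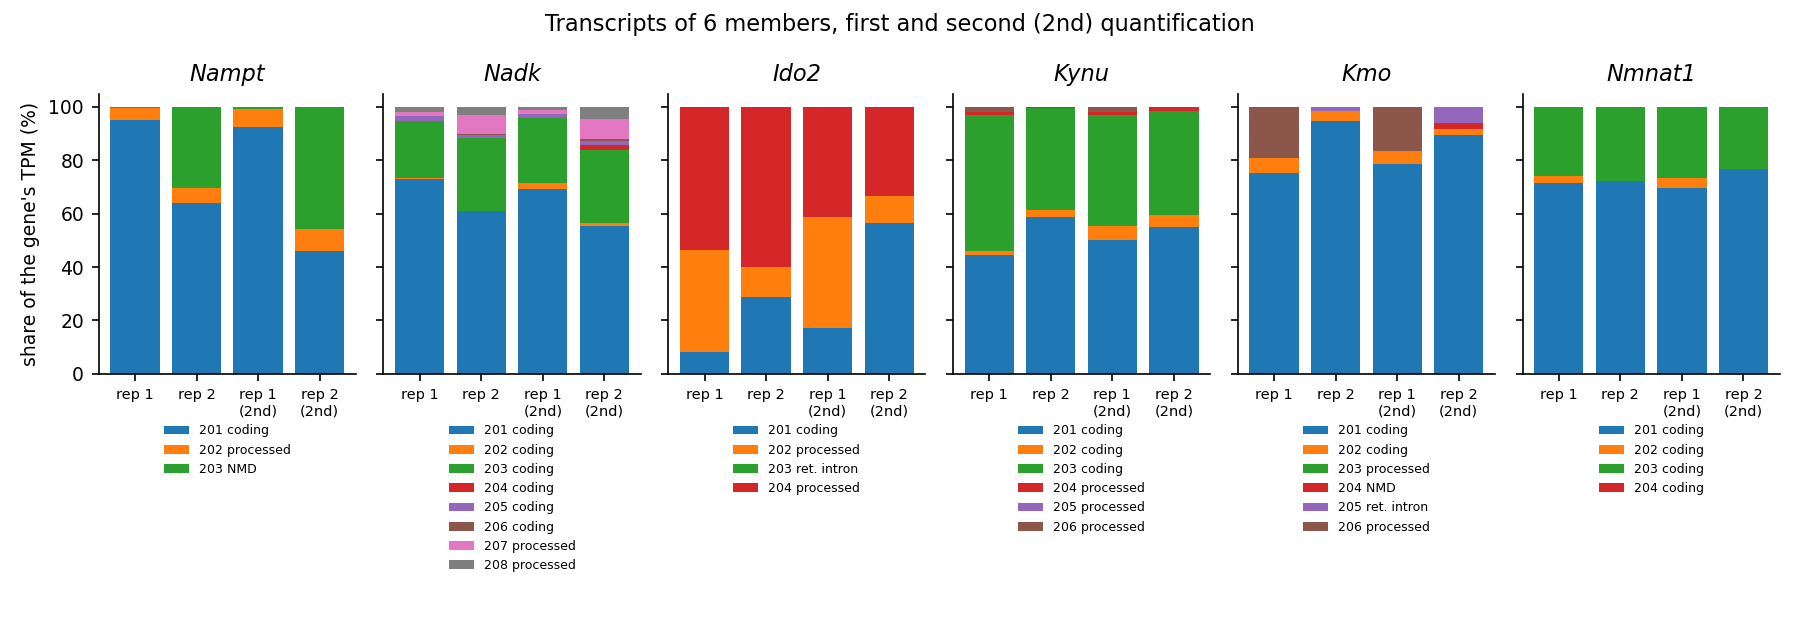
Share of each transcript in the TPM of its gene (percent, stacked to 100%) for 6 genes in each library, by the first and second (2nd) quantification; NMD marks a target of nonsense-mediated decay. The Nampt-203 block is near 0 in replicate 1 and 30.45% in replicate 2, and the bars of Nmnat1 are nearly alike.

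In scaled counts, 5 of the 9 genes differed by more than 1.5-fold between the libraries, and 35.8% of the 12226 genes with enough counts did so. Kmo, Ido1, Kynu and Ido2 were the 4 higher in replicate 2 (16.7% of all genes tested) and Bst1 was the 1 higher in replicate 1 (19.1%). The 9 genes all passed the count filter. Their median log2 ratio was 0.26 and their median absolute log2 ratio 0.60, against -0.01 and 0.43 over all genes tested. The 4 members highest in mean TPM, Nampt, Nadk, Cd38 and Nmnat1, stayed within 1.5-fold, and the 5 members under 7 TPM on average did not. By the deposited TPM 2 of the 9 genes, Ido1 and Bst1, passed 1.5-fold, and 41.3% of all genes tested did. Kmo and Kynu kept their direction there with log2 ratios of 0.53 and 0.50, just inside 1.5-fold, and Ido2 had 0.05. The second quantification gave Kmo 0.99 and Kynu 0.85, and removal of a GC and length trend 1.12 and 1.28. TPM also divides by effective length, which was 2040 and 2473 bases for Kmo and 1852 and 2444 bases for Ido2 in the first and second library. In the TPM setting 35.2% of the genes past 1.5-fold were higher in replicate 2, against 46.6% in scaled counts.

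**Figure D3:**
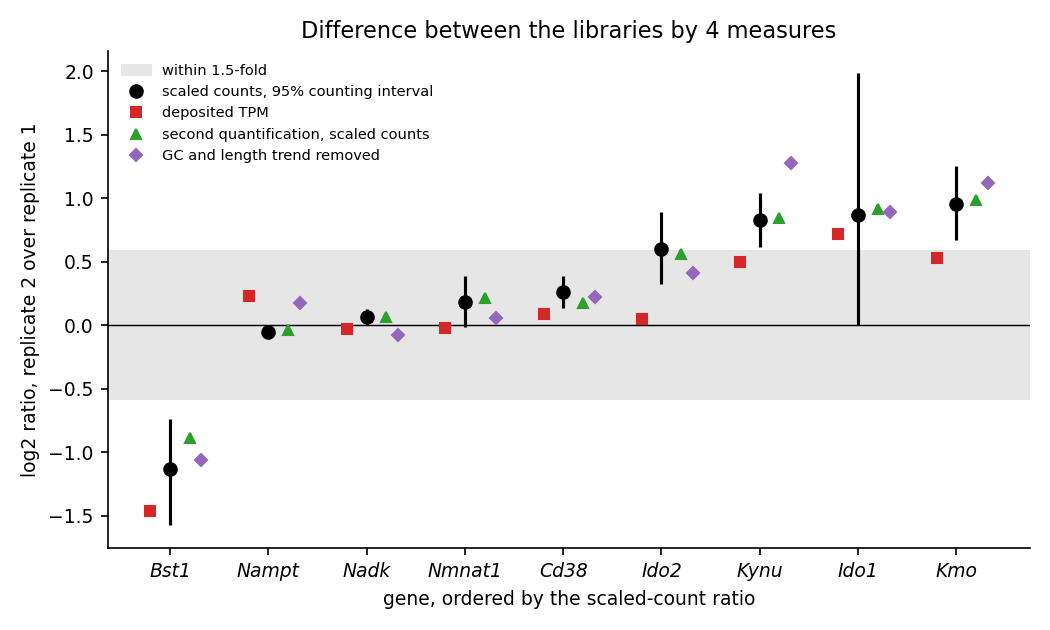
Log2 ratio of replicate 2 over replicate 1 for the 9 genes in scaled counts (black, with 95% counting intervals), deposited TPM (red), the second quantification (green) and after removal of a GC and length trend (purple); the grey band is 1.5-fold. Bst1 is below the band by each measure and Nampt changes sign between scaled counts and TPM.

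Of the 57 names in 10 lists of NAD and tryptophan genes, 56 were matched and 34 stood at 1 TPM in both libraries. The 47 that are not among the 9 genes had 27 at 1 TPM in both. Of those 47, 33 passed the count filter, and their median log2 ratio was 0.03. Of the 33, 3 were past 1.5-fold toward replicate 2 and 2 toward replicate 1, while 16.7% and 19.1% of all genes tested were. In the kynurenine list, 3 of 8 genes were at 1 TPM in both libraries and 4 were past 1.5-fold toward replicate 2, the 4 already described. Afmid, the formamidase between the dioxygenases and Kmo, had 2.61 and 0.71 TPM, but a log2 ratio of -0.16 in scaled counts. Tdo2, the liver dioxygenase, had 4 and 2 expected counts, and Haao, which acts after Kynu, had 4 and 1. Qprt, which makes the nicotinic acid mononucleotide that leads to NAD, was listed at 0 counts in each library, and 3 counts would correspond to 0.164 TPM in replicate 1 and 0.0961 TPM in replicate 2. At 1 TPM in both libraries the list was therefore detected through Kynu, Ido2 and Kmo only. By the first quantification most of the Ido2 signal lay outside its coding transcript. Tdo2 among the dioxygenases, and Haao and Qprt at the last steps, were at or near 0.

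Of the branch genes, Got2, a mitochondrial transaminase, was highest at 30.97 and 34.89 TPM, and Acmsd and Aadat had 0 counts in both libraries. The second quantification gave Acmsd 0.43 and 0.26 TPM. In the Preiss-Handler list, Naprt, which uses nicotinic acid, had 1.10 and 0.81 TPM and Nadsyn1 had 1.65 and 1.06 TPM. At the level of the whole gene, decay-target and processed transcripts included, Nampt exceeded Naprt 348-fold in replicate 1 and 554-fold in replicate 2. In the salvage list, Pnp, a nucleoside phosphorylase, was highest with 716.76 and 315.71 TPM and a log2 ratio of -0.47, although Pnp and its near copy Pnp2 may share reads. Nmrk1, a nicotinamide riboside kinase, had 2.40 and 1.53 TPM, and Nmrk2 had 0 counts. Among the salvage, Preiss-Handler and kynurenine routes, only Pnp and Nampt of the salvage list were above 300 TPM in both libraries as whole genes. The coding Nampt-201 alone had 364.2 and 287.37 TPM, so Nampt passed 300 TPM in replicate 2 only with its other transcripts included. The mitochondrial NAD carrier Slc25a51 had 20.06 and 18.39 TPM, and Nnt, the gene named for the mitochondrial transhydrogenase, 5.48 and 6.62 TPM as the sum of its matched entries. These are RNA levels, and whether the cells hold a working Nnt enzyme cannot be read from them.

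**Figure D4:**
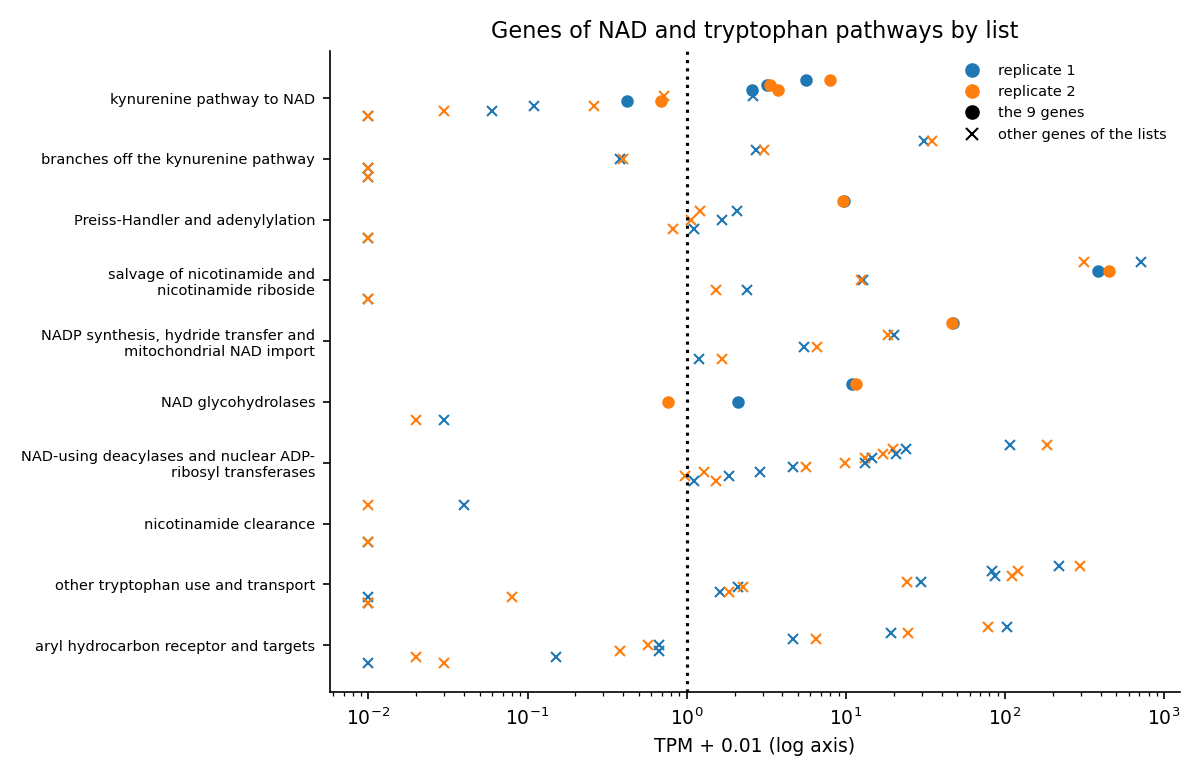
TPM plus 0.01 (log axis) of 56 genes in 10 lists, in replicate 1 (blue) and replicate 2 (orange), with the 9 genes as circles and the others as crosses; the dotted line marks 1 TPM. Pnp and Nampt of the salvage list and the transport gene Slc3a2 lie farthest right, and the genes at the left edge were listed at 0.

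Of the NAD-using deacylases and nuclear ADP-ribosyl transferases, 8 of 9 were at 1 TPM in both libraries. Sirt2, a cytosolic deacylase, was highest with 106.95 and 184.09 TPM and a log2 ratio of 0.91 (counting interval 0.86 to 0.96). Sirt3, its mitochondrial relative, was lowest with 1.10 and 1.51 TPM. Sirt5, a mitochondrial desuccinylase, had 1.84 and 0.96 TPM and a log2 ratio of -0.59 (counting interval -1.19 to -0.04), just past 1.5-fold. That ratio rests on 55 and 53 expected counts, and the second quantification gave Sirt5 3.37 and 2.82 TPM. Nnmt, which methylates nicotinamide, had 0 counts, and Aox1 had 3 and 0. Neither gene of the nicotinamide clearance list was above 3 counts in a library.

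Of the tryptophan genes outside the kynurenine route, 6 of 8 were at 1 TPM in both libraries. Slc3a2, the heavy chain of amino acid exchangers, was highest with 217.82 and 296.21 TPM. Slc7a8, a light chain that carries neutral amino acids, had 83.46 and 120.89 TPM and a log2 ratio of 0.71 (counting interval 0.67 to 0.75). Tph1, which leads to serotonin, had 0 counts. Of the aryl hydrocarbon receptor list, whose receptor binds kynurenine products, Tiparp was highest with 103.61 and 77.89 TPM and Cyp1a1 lowest with 0 and 0.02 TPM. Ahr itself was below 1 TPM in both libraries, with 0.66 and 0.37 TPM and a log2 ratio of -1.56 (counting interval -2.18 to -1.07). That ratio rests on 87 and 42 expected counts, and the second quantification gave Ahr 0.614 and 0.356 TPM. Ahrr, a repressor of that receptor, had 4.65 and 6.5 TPM and a log2 ratio of 0.90. The receptor and its repressor thus differed between the libraries in opposite directions.

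**Figure D5:**
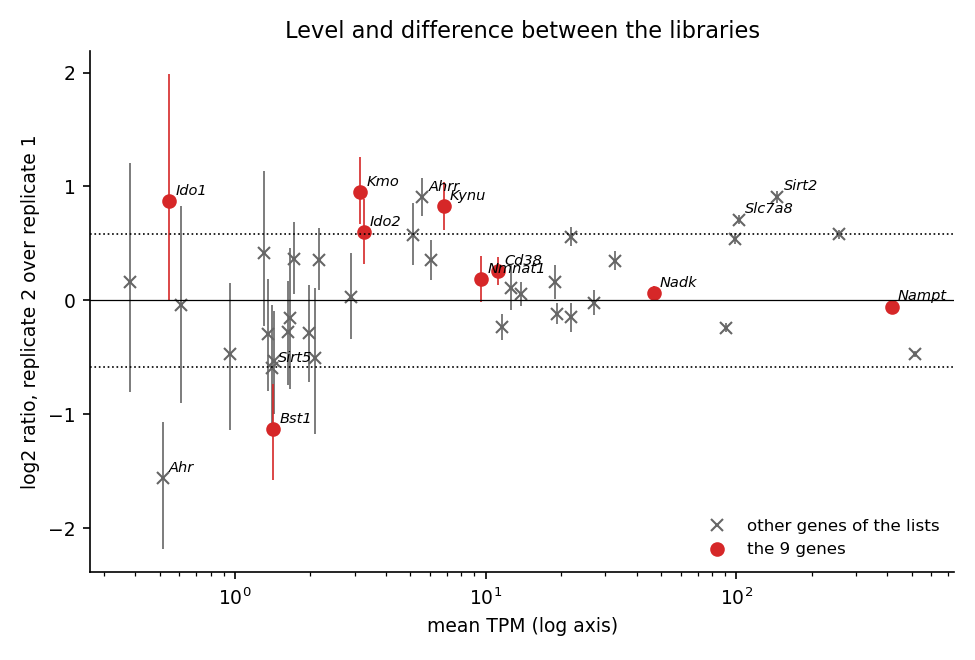
Log2 ratio of replicate 2 over replicate 1 in scaled counts against mean TPM (log axis) for the genes of the 10 lists with enough counts, with 95% counting intervals; red circles are the 9 genes, grey crosses the others, and dotted lines mark 1.5-fold. Ido1, Ido2, Kmo and Kynu lie above the upper line at low levels, and Nampt lies near 0 at a high level.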

How the data were processed

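The authors deposited, for each library, a gene and a transcript table with expected counts, TPM, FPKM and the percent of a gene's TPM in each transcript, in the column layout that RSEM writes, and a second transcript table with estimated counts and TPM in the layout that kallisto writes. Per the labels the assembly is mm10, and per the deposited notes the annotation is GENCODE M21; no aligner or quantifier is named, with or without a version, in the sources used here. Rows for tRNAs, spike-ins and phage (26345 of 81881) were left out, leaving 55536 genes. Nothing in the sources gives strand use in counting.

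Expected counts were rounded, genes were kept by filterByExpr (12226), and library sizes were scaled by TMM in edgeR 4.0.16 (R 4.3.3), which ran no test. Log2 ratios used a prior count of 2. Intervals of log2 ratios are exact 95% binomial intervals, and the bars on TPM are exact 95% Poisson intervals of the counts, scaled to TPM. Both cover counting error only, and reads without molecular identifiers are not independent molecules. The ratio script was tested on simulated data. Mean ± SD is over 2 libraries.

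The 9 genes, the lists and the alternatives were chosen with earlier results of these data known. Named genes outside the 9 are, for each list, the highest and lowest by mean TPM, those past 1.5-fold with 100 or more summed counts, and the partners of the level ratios; Afmid, Haao, Tdo2, Nmrk1, Slc25a51, Nnt and other genes at 0 counts were added to complete the routes. Alternatives were DESeq2 1.42.0 size factors, the deposited TPM and FPKM, the second quantification, a GC and length trend (spline with 5 degrees of freedom), a prior count of 0.5, no count filter, other TPM thresholds and leaving out a library.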

Additional observations from a re-analysis of the deposited data

How the results depend on the processing

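Of 160 alternative values, 36 were marked as moved from the reported one, 124 were not, and none reversed a difference past 1.5-fold. The 124 take in the values with a library left out, which cannot test closeness, because a mean of 2 libraries lies between them. The mean TPM of Bst1 was 1.42, and 0.75 without replicate 1 or 2.09 without replicate 2. The count of the 9 genes past 1.5-fold was 5 with DESeq2 size factors and with a prior count of 0.5. It was 4 with the second quantification and with the GC and length trend removed, where Ido2 had log2 ratios of 0.56 and 0.41, and 2 with the deposited TPM. The share of all genes past 1.5-fold was 35.0%, 30.8% and 41.3% in these settings. Over all genes the count was 4374, and 9157 of 19845 with every gene that had a count. Pathway genes at 1 TPM in both libraries numbered 34, and 21 at a threshold of 5 TPM. Leaving out a library gave 7 to 8 of the 9 genes and 34 to 38 pathway genes at 1 TPM. Chosen after seeing the data, thresholds of 10 and 30 percentage points gave 6 and 1 genes with a moved transcript share in place of 2, and Nampt-201 alone gave a log2 ratio of -0.18. By its share, Ido2-204 held a mean of 37.4% in the second quantification. The cause was not tested.

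No paired analysis was possible because the series holds 1 group. Depth limits Ido1, Bst1 and the short Ido2 transcripts, which rest on few counts, and the libraries carry the same donor record. Whether the cultures or mice were separate is not stated.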
